A study of Daphnia magna with 27 samples.

Results

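Vitellogenin is the yolk precursor protein of egg-laying animals, and 3 of the 2261 spotted cDNA fragments (reporters) measured here in the water flea Daphnia magna carry its abbreviation, vtg, at the start of their name. Reporter EBT_DamaRep_ASP1 H2 is named vtg precursor. Reporters EBT_DamaRep_ASP1 F6 and EBT_DamaRep_ASP1 G1 are both named vtg. They are called H2, F6 and G1 here, and no other reporter met the rule. All 3 have the clone token Rep in their identifier, as do 729 of the 2261 reporters. The labels and tables leave this token unexplained, pair no reporter with a genome position, and do not say whether the 3 clones come from 1 gene or several.

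In Daphnia and other crustaceans vitellogenin is made by the mother in large amounts, released into the haemolymph and taken up by the growing oocytes, where it is processed into yolk. Its transcript follows the reproductive cycle of the adult, since each new clutch of parthenogenetic eggs is provisioned before it is laid. Vitellogenin carries lipid and can bind metal ions, and its transcript is widely used as a marker of egg provisioning.

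Whole adults of clone K6 were sampled in 9 groups of 3 samples, each a pool of 10 animals taken when the following generation was begun. Neonates of 1 laboratory culture were either kept in modified M4 medium for 3 generations (CtrlF0, CtrlF1, CtrlF2) or moved to that medium with zinc at 388 µg/L (ZnF0). Daughters of ZnF0 stayed in zinc (Zn(+)F1) or were returned to control medium after the first hours of life (Zn(-)F1). Daughters of Zn(+)F1 stayed in zinc (Zn(+)F2) or were returned to control medium (Zn(+/-)F2), and daughters of Zn(-)F1 remained in control medium (Zn(-/-)F2). Age at sampling was 20 days in CtrlF0 and CtrlF2, 21 days in Zn(+)F1, Zn(-)F1 and Zn(+)F2, 22 days in CtrlF1, Zn(+/-)F2 and Zn(-/-)F2, and 23 days in ZnF0. Where the ages of compared groups differ, age and group cannot be told apart. Each sample was hybridised on a 2-colour array against a reference pool of 60 daphnids each of 6, 13 and 21 days, and each value is the log2 ratio of sample over that pool. Because whole animals were extracted, fewer vitellogenin-making cells and less transcript per cell cannot be told apart, and neither can the stage of the animals in their egg cycle.

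Several arrays stood apart, and each limits a result below. Replicates 1 and 3 of CtrlF0 held equal values for 2065 of 2066 reporters, with a largest gap of 0.00026, and were counted as 1 sample, which leaves 2 samples in CtrlF0. Replicate 2 of Zn(+)F1 held values for 886 reporters and none for the vtg reporters, so Zn(+)F1 has 2 samples here. G1 had no value in CtrlF0 replicate 2 either and rests on 1 sample there. The 6 arrays of CtrlF2 and Zn(+)F2 were not centred: their medians over all reporters lay between -0.40 and 0.35, negative where the sample was labelled with Cy3 and positive where it was labelled with Cy5, and all 6 held log2 ratios beyond ±6, which no other array did. The medians of the other 21 arrays lay between -0.033 and 0.072. Over all reporters, the 3 Zn(+)F2 arrays correlated with each other at r between -0.13 and 0.31 on deposited ratios. In CtrlF2 this r lay between 0.27 and 0.46, and in Zn(-/-)F2 between 0.41 and 0.76. The comparisons with Zn(+)F2 below rest on these arrays. A limma fit over all groups with a dye term was the main test, with p-values adjusted over all reporters by Benjamini-Hochberg and a reporter called at an adjusted p under 0.05. In this fit the offset of the 6 arrays entered the dye term, whose median over all reporters was 0.38 on the log2 scale. The dye term was called for H2 (0.55 ± 0.16, adjusted p = 0.0190) and F6 (0.46 ± 0.15, adjusted p = 0.0337) and for 34.4% of all reporters, but after centring for none of the 3 vtg reporters and 2.65% of all. The dye difference was not equal in the F2 groups, which hold both dyes. In H2, Cy5 minus Cy3 was 0.97 in CtrlF2, 0.87 in Zn(+)F2, -0.26 in Zn(+/-)F2 and 0.63 in Zn(-/-)F2. After centring it was 0.29, 0.15, -0.28 and 0.63 in the same order. The offset of the 6 arrays also reached, through the dye term, the comparisons of groups with different dyes. Values after centring each array on its own median are therefore given beside the fit on the deposited scale.

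The lowest ratios of H2 and F6 in the study were in Zn(-/-)F2, a group in control medium. Its grandmothers had been reared in zinc and its mothers had been returned to control medium after the first hours of life. In H2 the deposited log2 ratios of this group were -1.50, -1.25 and -0.75. CtrlF2, the control of the same generation, had -0.50, -0.10 and 0.66 in H2. Every Zn(-/-)F2 sample was below every sample of the other 8 groups in H2. F6 gave -1.22, -1.04 and -0.83 in Zn(-/-)F2, against -0.40, -0.15 and 0.58 in CtrlF2. All values of F6 in the other groups were above those 3 as well. G1 gave -0.33, -0.24 and -0.58 in Zn(-/-)F2 and -0.37, -0.31 and 0.15 in CtrlF2, so that here the groups overlapped.

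**Figure D1:**
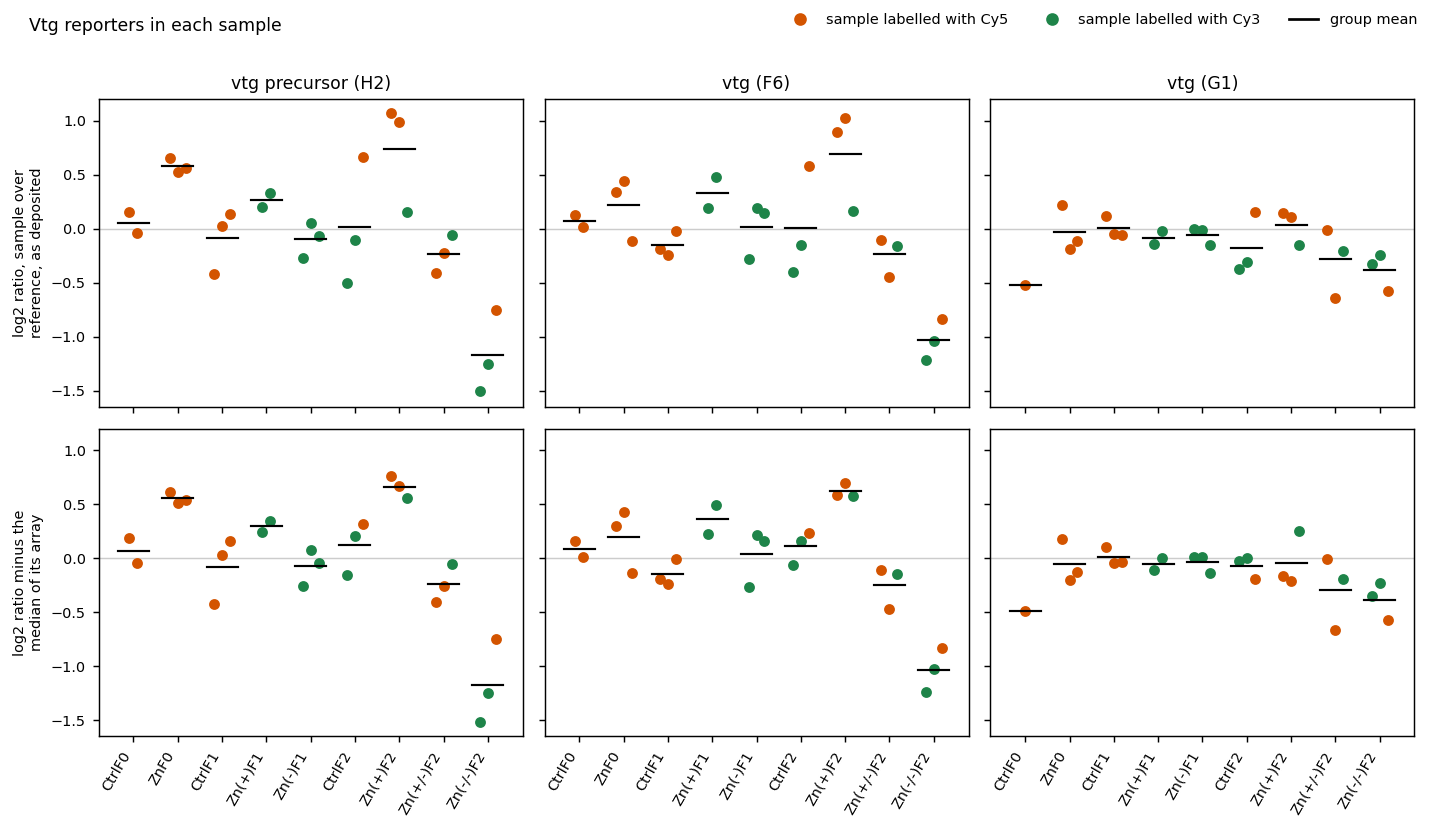
Log2 ratio of sample over reference for H2, F6 and G1 in each group, as deposited (top) and after subtracting the median of the array (bottom); each point is 1 sample, coloured by its dye, and bars are group means. The 3 Zn(-/-)F2 samples lie between -1.50 and -0.75 for H2 and between -1.22 and -0.83 for F6, below all other samples, and in H2 and F6 the spread between dyes in CtrlF2 and Zn(+)F2 narrows after centring.

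Both H2 and F6 fell in Zn(-/-)F2 relative to CtrlF2. H2 fell by 1.19 ± 0.21 on the log2 scale (SE, 3 against 3 samples, adjusted p = 0.00163), a 2.28-fold difference. F6 fell by 1.04 ± 0.21 (adjusted p = 0.00306), a 2.05-fold difference. The calls covered 2 of the 3 vtg reporters, against 9.93% of the 2256 reporters tested. G1 changed by -0.21 ± 0.18 (adjusted p = 0.510) with a 95% confidence interval from -0.59 to 0.17. Counted from the lowest log2 change, H2 ranked 65 and F6 ranked 104 of 2256. Of the other 723 Rep clones tested, 73 were called lower and 22 higher, 13.1% in all, with a median change of -0.080 beside 0.12 over all reporters.

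The fall was present in both dyes and on the centred scale. With centred arrays H2 differed by -1.29 ± 0.18 (adjusted p = 7.55e-05) and F6 by -1.14 ± 0.16 (adjusted p = 0.000111), where 17.4% of reporters were called. Among Cy3-labelled samples, 2 in each group, the centred difference was -1.41 in H2 and -1.18 in F6. Among Cy5-labelled samples, 1 in each group, it was -1.06 in H2 and -1.07 in F6. On the deposited scale these 4 differences were -1.08, -0.85, -1.41 and -1.42 in the same order. A fit of the 6 arrays of these groups alone gave the same changes with adjusted p = 0.0677 for H2 and 0.0778 for F6. Zn(-/-)F2 animals were 22 days old and CtrlF2 animals 20 days old.

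Zn(+/-)F2, of the same generation and age as Zn(-/-)F2 and also in control medium but born to mothers in zinc, had higher values. Its deposited ratios were -0.23, -0.41 and -0.061 in H2 and -0.44, -0.11 and -0.16 in F6. None of these overlapped with Zn(-/-)F2. This pair was not among the tested comparisons, and its difference is given as values only. Relative to CtrlF2, Zn(+/-)F2 differed by -0.44 ± 0.22 in H2 (adjusted p = 0.417) and by -0.40 ± 0.21 in F6 (adjusted p = 0.445). No vtg reporter was called here, where 1.46% of 2258 reporters were, nor with centred arrays, where 2.83% were. Without Zn(+/-)F2 replicate 3, its only sample labelled with Cy3, H2 was called in this comparison at -0.89 (adjusted p = 0.0425).

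The highest group means of H2 and F6 were in Zn(+)F2, the group whose mothers and grandmothers had also lived in zinc. H2 stood at 1.07, 0.99 and 0.15 on the deposited scale and F6 at 0.89, 1.02 and 0.17. The third sample carried the other dye, and after centring the values closed up to 0.76, 0.66 and 0.56 in H2 and to 0.58, 0.70 and 0.57 in F6. After centring, all 3 samples were above all CtrlF2 samples, whose highest values were 0.32 in H2 and 0.24 in F6. The change from CtrlF2 was 0.53 ± 0.22 in H2 (adjusted p = 0.202) and 0.53 ± 0.21 in F6 (adjusted p = 0.185), with 0 of 3 vtg reporters called against 3.19% of 2258. On the centred scale it was 0.47 ± 0.18 and 0.47 ± 0.17, with adjusted p = 0.129 and 0.101, so neither reporter passed the test where 6.11% did. Within Cy5 the centred difference was 0.39 in H2 and 0.40 in F6, and within Cy3 it was 0.53 and 0.52.

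Daughters of Zn(+)F1 that left zinc had lower vtg signals than their sisters that stayed. In Zn(+/-)F2 against Zn(+)F2, H2 fell by 0.97 ± 0.21 on the log2 scale (adjusted p = 0.0145), a 1.96-fold difference, and F6 fell by 0.93 ± 0.21 (adjusted p = 0.0145), a 1.91-fold difference. Of all 2258 reporters 4.83% were called, of the vtg reporters 2 of 3. Of the other 726 Rep clones, 63 were called lower and 9 higher, 9.92% in all. The change of G1 was -0.32 ± 0.18 (adjusted p = 0.435). On the centred scale H2 and F6 changed by -0.90 ± 0.18 and -0.86 ± 0.16, with adjusted p = 0.00467 and 0.00422 and 6.38% of reporters called. The centred difference within Cy5, 2 samples a group, was -1.04 in H2 and -0.93 in F6, and within Cy3, 1 sample a group, -0.61 and -0.72.

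These calls depended on the fit. Without a dye term the same changes had adjusted p = 0.0874 in H2 and 0.0790 in F6, and with the 6 arrays alone 0.691 in both. Leaving out Zn(+/-)F2 replicate 2 gave -0.78 in H2 (adjusted p = 0.103) and -0.92 in F6 (adjusted p = 0.0686), and leaving out Zn(+/-)F2 replicate 1 gave -0.87 (adjusted p = 0.0822) and -0.74 (adjusted p = 0.0886). Without Zn(+)F2 replicate 2, F6 changed by -0.84 (adjusted p = 0.0527). The uncentred offset of Zn(+)F2 arrays moved with this comparison, and the deposited within-dye differences were -1.34 and -1.23 in Cy5 but -0.22 and -0.33 in Cy3 for H2 and F6.

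In the first generation the vtg precursor reporter had higher ratios in zinc, a difference called in the authors' deposited table but not in the fit over samples. H2 stood at 0.65, 0.53 and 0.56 in ZnF0 and at 0.15 and -0.038 in CtrlF0, all labelled with Cy5, and the groups did not overlap. F6 stood at 0.34, 0.44 and -0.12 in ZnF0 and at 0.13 and 0.018 in CtrlF0, with the third ZnF0 sample below both controls. In the authors' deposited table of this comparison H2 rose by 0.67 ± 0.087 on the log2 scale (adjusted p = 4.67e-06), a 1.59-fold difference, and ranked 120 by p-value of 2220 reporters. F6 changed by 0.27 ± 0.14 (adjusted p = 0.165) and G1 by 0.14 ± 0.36 (adjusted p = 0.836) in the authors' deposited table, which called 1 of the 3 vtg reporters and 33.2% of all reporters.

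The fit over samples gave H2 a similar change with a wider error. It was 0.52 ± 0.24 (adjusted p = 0.254, 3 against 2 samples), and 0.49 ± 0.20 with centred arrays (adjusted p = 0.131). F6 changed by 0.15 ± 0.23 (adjusted p = 0.892) and G1 by 0.49 ± 0.25 (adjusted p = 0.331), the latter against a single CtrlF0 sample at -0.52. No vtg reporter was called, against 4.53% of 2207 reporters. With both near-identical CtrlF0 columns kept as 2 samples, H2 changed by 0.49 (adjusted p = 0.143). The sources used here do not say how the authors' fit was set up or whether it counted these columns as 2 samples. ZnF0 animals were 23 days old and CtrlF0 animals 20 days old.

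In the next generation H2 and F6 were higher in Zn(+)F1 than in CtrlF1, but all Zn(+)F1 samples carried Cy3 and all CtrlF1 samples Cy5. The authors' deposited tables do not hold Zn(+)F1 or Zn(-)F1, so the direction of the ratios in Zn(+)F1 and Zn(-)F1 was not checked against them. H2 stood at 0.21 and 0.33 in Zn(+)F1 and at -0.42, 0.023 and 0.14 in CtrlF1. F6 stood at 0.19 and 0.48 in Zn(+)F1 and at -0.18, -0.24 and -0.023 in CtrlF1. The groups did not overlap in either reporter, while G1 overlapped with -0.14 and -0.019 in Zn(+)F1 and 0.11, -0.047 and -0.053 in CtrlF1.

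The size of this difference depended on the dye term. On the deposited scale with the dye term, H2 was higher by 0.91 ± 0.29 (adjusted p = 0.0460) and F6 by 0.94 ± 0.28 (adjusted p = 0.0318), so 2 of 3 vtg reporters were called against 13.6% of 2241. Of the other 717 Rep clones tested, 133 were called higher and 3 lower, 19.0% in all, with a median change of 0.53. The median change of all reporters in this comparison was itself 0.37, and 287 of the 305 called reporters were higher, against 129 of 200 with centred arrays. Relative to that median H2 differed by 0.54 and F6 by 0.58. With centred arrays the changes were 0.57 ± 0.24 (adjusted p = 0.137) and 0.61 ± 0.22 (adjusted p = 0.0910), with 8.92% of reporters called, and without a dye term 0.35 (adjusted p = 0.678) and 0.48 (adjusted p = 0.432). Neither call held when any 1 of CtrlF1 replicate 1 or 2, or Zn(+)F1 replicate 1 or 3, was left out, with adjusted p up to 0.144. The change of G1 was 0.0059 ± 0.24 (adjusted p = 0.991) and, with centred arrays, -0.33 ± 0.19 (adjusted p = 0.304).

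Zn(-)F1, returned to control medium soon after birth, overlapped with CtrlF1 and had lower values than Zn(+)F1. Its ratios were -0.27, 0.056 and -0.063 in H2 and -0.28, 0.19 and 0.14 in F6. Against Zn(+)F1, of the same age and dye, H2 changed by -0.36 ± 0.24 and F6 by -0.32 ± 0.23, and adjusted p was 1.00 for both. No vtg reporter was called in that comparison, nor were more than 0.0444% of 2250 reporters. The H2 values of the groups did not overlap, and neither did those of F6, whose highest Zn(-)F1 value of 0.1924 was just under the lowest Zn(+)F1 value of 0.1931. Against CtrlF1 the changes were 0.55 ± 0.27 in H2 (adjusted p = 0.185) and 0.62 ± 0.26 in F6 (adjusted p = 0.113), against a median of 0.33 over all reporters and 12.3% called. With centred arrays they were 0.20 ± 0.22 and 0.28 ± 0.20, and no vtg reporter but 10.1% of all were called. All Zn(-)F1 samples carried Cy3 and all CtrlF1 samples Cy5. Without a dye term the changes from CtrlF1 were -0.0059 in H2 and 0.17 in F6.

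**Figure D2:**
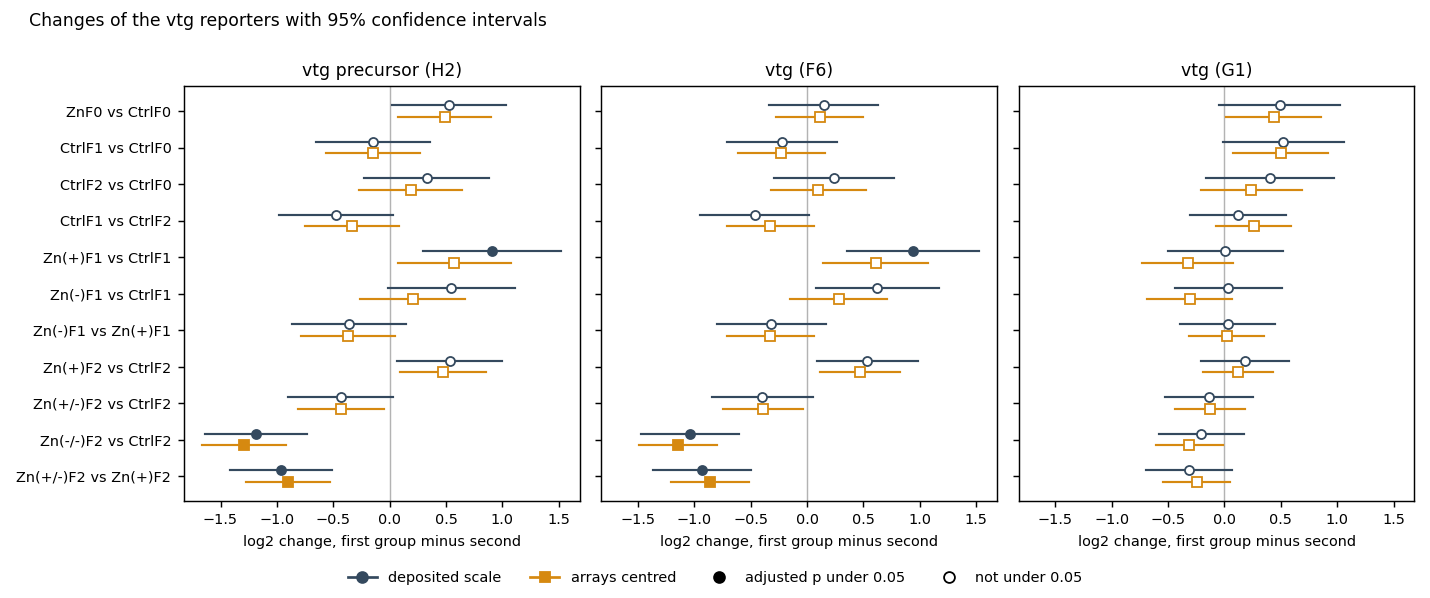
Log2 change of each vtg reporter in 11 comparisons (first group minus second) with 95% confidence intervals, from the fit on the deposited scale (circles) and after centring each array (squares); filled symbols have an adjusted p under 0.05. H2 and F6 are filled on both scales for Zn(-/-)F2 vs CtrlF2 and Zn(+/-)F2 vs Zn(+)F2, on the deposited scale alone for Zn(+)F1 vs CtrlF1, and G1 is open throughout.

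Whether the zinc difference changed between generations was tested in the same fit. The zinc effect in F1 minus that in F0 was 0.38 ± 0.38 in H2 (adjusted p = 0.554) and 0.79 ± 0.36 in F6 (adjusted p = 0.160). The zinc effect in F2 minus that in F0 was 0.0090 ± 0.33 in H2 (adjusted p = 0.991) and 0.39 ± 0.31 in F6 (adjusted p = 0.663). No vtg reporter was called in either, against 14.3% of 2196 and 1.31% of 2206 reporters. With centred arrays the contrasts were 0.087 ± 0.31 and -0.016 ± 0.27 in H2 and 0.50 ± 0.29 and 0.36 ± 0.25 in F6, again with no vtg reporter called where 15.4% and 1.77% were. In G1, with a value in 1 CtrlF0 sample, the F1 and F2 contrasts were negative. They were -0.48 and -0.31 on the deposited scale and -0.76 and -0.32 with centred arrays. All these contrasts share the ZnF0 and CtrlF0 samples.

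Between control generations no vtg reporter passed the test in the fit over samples. CtrlF1 against CtrlF0, both labelled with Cy5, gave -0.14 ± 0.24 in H2 (adjusted p = 0.998), -0.22 ± 0.23 in F6 (adjusted p = 0.938) and 0.52 ± 0.25 in G1 (adjusted p = 0.455). No reporter at all was called by limma in this comparison (0%), while 252 of 2212 had an unadjusted p under 0.05 and the authors' deposited table called 557. With centred arrays the changes were -0.15 ± 0.20, -0.23 ± 0.18 and 0.50 ± 0.20, with no vtg reporter called where 3.71% were. In the authors' deposited table F6 fell by 0.45 ± 0.13 (adjusted p = 0.0107), a 1.37-fold difference, whereas H2 changed by 0.032 ± 0.10 (adjusted p = 0.898) and G1 by 0.20 ± 0.25 (adjusted p = 0.678). That table called 25.0% of 2226 reporters. Whether its fit counted CtrlF0 replicates 1 and 3 as separate samples is not stated either. The 3 CtrlF1 values of F6, given above, were all below both CtrlF0 values.

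CtrlF2 and CtrlF0 were sampled at the same age of 20 days. H2 changed by 0.33 ± 0.26 (adjusted p = 0.624), F6 by 0.24 ± 0.25 (adjusted p = 0.724) and G1 by 0.40 ± 0.27 (adjusted p = 0.545), beside a median of 0.10 over all reporters and 0.856% called. With centred arrays the changes were 0.19 ± 0.22, 0.098 ± 0.20 and 0.24 ± 0.21, with 1.62% of reporters called. All CtrlF0 samples carried Cy5, whereas CtrlF2 had 1 sample with Cy5 and 2 with Cy3. Without a dye term the changes were -0.038 in H2, -0.063 in F6 and 0.34 in G1. The authors' deposited table gave 0.25 ± 0.15 in H2 (adjusted p = 0.314), -0.0024 ± 0.14 in F6 (adjusted p = 0.995) and -0.010 ± 0.25 in G1 (adjusted p = 0.992), with 12.5% of reporters called. The signs of F6 and G1 thus differed between the main fit and the authors' deposited table, at changes within 1 SE of 0 in that table.

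For CtrlF1 against CtrlF2 the changes were -0.48 ± 0.24 in H2 (adjusted p = 0.216), -0.46 ± 0.23 in F6 (adjusted p = 0.210) and 0.12 ± 0.20 in G1 (adjusted p = 0.764). The median over all reporters was -0.13, and 13.0% of 2247 were called. With centred arrays the changes were -0.34 ± 0.20, -0.33 ± 0.18 and 0.26 ± 0.16, with 17.6% of reporters called and no vtg reporter among them. All CtrlF1 samples carried Cy5, and without a dye term the changes were -0.11 in H2, -0.16 in F6 and 0.18 in G1. In the authors' deposited table H2 changed by -0.12 ± 0.16 (adjusted p = 0.650), F6 by -0.36 ± 0.14 (adjusted p = 0.0599) and G1 by 0.021 ± 0.14 (adjusted p = 0.927), where 30.8% of reporters were called. The 3 control comparisons share samples in pairs. Across the 4 authors' deposited tables, 1 of 3 vtg reporters was called in each of the first 2 named here, H2 in zinc and F6 in CtrlF1, and none in the other two.

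Ordered by their centred and dye-adjusted group means, the groups in zinc led in H2. The means were 0.63 ± 0.13 in Zn(+)F2, 0.46 ± 0.14 in ZnF0 and 0.39 ± 0.17 in Zn(+)F1 (SE of the fit). CtrlF2 followed at 0.16 ± 0.13, Zn(-)F1 at 0.024 ± 0.14, CtrlF0 at -0.031 ± 0.17, CtrlF1 at -0.18 ± 0.14 and Zn(+/-)F2 at -0.27 ± 0.13, with Zn(-/-)F2 last at -1.14 ± 0.13. Sample ranges of neighbours in this order overlapped except between Zn(+)F2 and ZnF0, between Zn(+)F1 and CtrlF2, and between Zn(+/-)F2 and Zn(-/-)F2. On the deposited scale the order was Zn(+)F2, Zn(+)F1, ZnF0, Zn(-)F1, CtrlF2, CtrlF0, Zn(+/-)F2, CtrlF1 and Zn(-/-)F2.

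In F6 the same groups stood at both ends. The centred means ran from 0.60 ± 0.12 in Zn(+)F2 and 0.41 ± 0.15 in Zn(+)F1 to -0.26 ± 0.12 in Zn(+/-)F2 and -1.01 ± 0.12 in Zn(-/-)F2. ZnF0 at 0.14 ± 0.13 was close to CtrlF2 at 0.13 ± 0.12. Neighbouring ranges overlapped except between CtrlF0 and CtrlF1 and between Zn(+/-)F2 and Zn(-/-)F2. G1 had a narrower range, from 0.14 ± 0.11 in CtrlF1 to -0.43 ± 0.10 in Zn(-/-)F2. The SD of the centred ratios over 24 samples was 0.57 in H2, 0.49 in F6 and 0.22 in G1. On the deposited scale the dye-adjusted mean of F6 in ZnF0 was -0.0082, below Zn(-)F1 at 0.25 and CtrlF2 at 0.086.

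H2 and F6 varied together from sample to sample. Over 25 samples Pearson's r was 0.937 and Spearman's rho 0.892 on deposited ratios. The samples fall into 9 groups whose means differ, so these values hold group differences and are given as a description, with no p. Without the 2 samples farthest from the median of H2, r was 0.894. Within Cy5 r was 0.90 (14 samples) and within Cy3 0.982 (11 samples). With centred arrays r was 0.925 and rho 0.884, and r was 0.849 without the 2 farthest samples. Within groups the relation was looser: r of deviations from group means was 0.689 on the deposited scale and 0.528 with centred arrays.

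**Figure D3:**
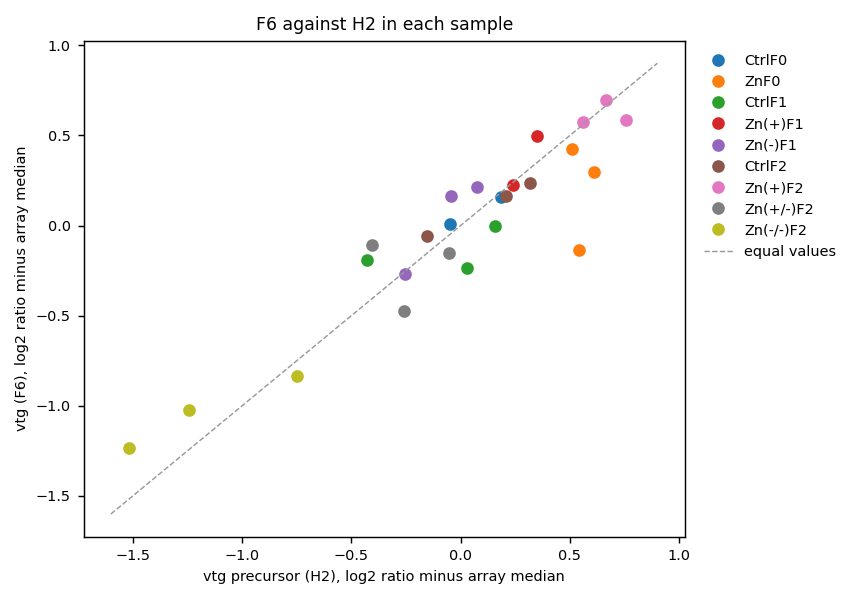
Centred log2 ratio of F6 against that of H2, 1 point per sample, coloured by group, with the line of equal values. The 3 Zn(-/-)F2 samples lie alone at the lower left and the 3 Zn(+)F2 samples at the upper right, and ZnF0 lies below the line, with F6 at -0.14 where H2 is 0.54 in 1 sample.

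In all 3 ZnF0 samples the centred ratio was higher in H2, at 0.61, 0.51 and 0.54, than in F6, at 0.30, 0.42 and -0.14. The gap was widest in replicate 3 and narrowest in replicate 2. Samples of every other group except CtrlF0, among them all of CtrlF1 and Zn(+/-)F2, had wider gaps than replicate 2, in either direction. The difference between the reporters was not tested by group. The sources used here do not tell whether H2 and F6 share sequence.

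The average log2 expression over arrays and channels in the authors' deposited tables was between 10.8 and 11.2 for H2, between 7.39 and 8.88 for F6 and between 4.76 and 7.55 for G1. In the zinc table these averages placed H2 at percentile 89.6 of all reporters in spot brightness, F6 at 53.0 and G1 at 5.71. Brightness also depends on the spotted clone, so it does not rank the transcripts. The percentile differed between tables: G1 stood at 5.93 in CtrlF1 against CtrlF0, 50.6 in CtrlF2 against CtrlF0 and 33.4 in CtrlF1 against CtrlF2, and F6 at 50.3, 73.0 and 60.9 in the authors' deposited tables of these comparisons. No background level was given by which to judge the signal of G1.

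Other reporters followed H2 and F6 closely, and nearly all were unnamed clones of the same token. Over the 25 samples, 46 of 1805 reporters with complete values had a dye-adjusted ratio that correlated with H2 at r over 0.9, and 45 of these were Rep clones, which make up 29.4% of the 1805. For F6 the count was 48, of which 47 were Rep clones. Of the 50 reporters nearest to H2, 49 were Rep clones and 1 was an Ene clone. With centred arrays 46 reporters correlated with H2 above 0.9 and 47 with F6, with 45 Rep clones among each. The unnamed reporters nearest to H2 were EBT_DamaRep_ASP2 B1 (r = 0.981) and EBT_DamaRep_ASP5 D8 (r = 0.981), ahead of F6, which ranked 40 at r = 0.934. Those nearest to F6 were EBT_DamaRep_ASP3 F6 (r = 0.982) and EBT_DamaRep_ASP2 E2 (r = 0.978), ahead of H2 at rank 31. All values of an array share its hybridisation, and these correlations are a description of the 25 samples.

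**Figure D4:**
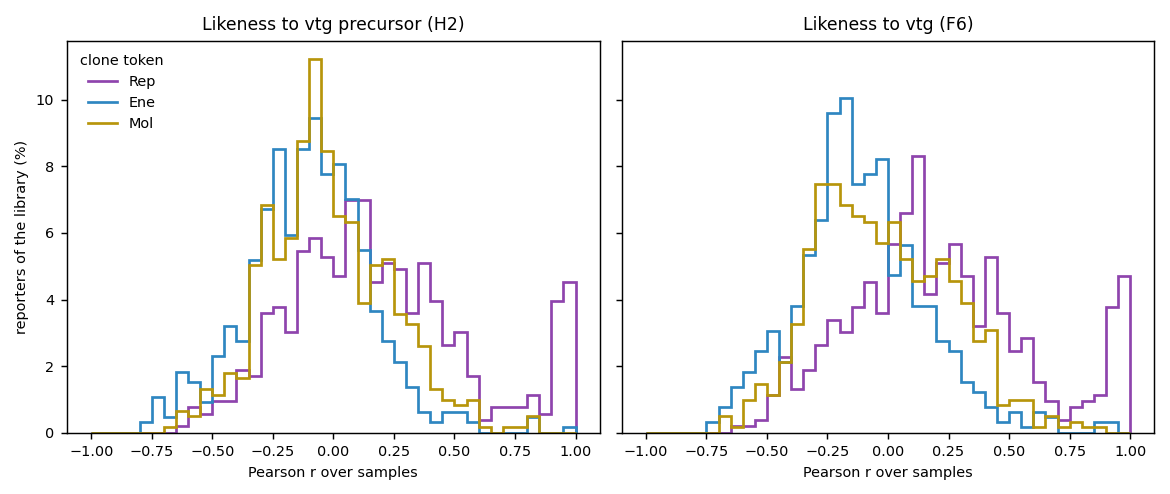
Distribution of Pearson's r, over 25 samples after centring and dye adjustment, between H2 (left) or F6 (right) and the reporters of each clone token, in percent of that token's reporters per bin of 0.05. A separate group of Rep clones lies above 0.9, with 45 reporters in each panel, while the medians of Ene and Mol clones are -0.095 and -0.050 for H2.

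Among named reporters outside the vtg names, none had an r over 0.9 with H2 or F6. The nearest to H2 on the deposited scale were nucleosome assembly, EBT_DamaRep_ASP1 C1, at r = 0.438 and histone deacetylase, EBT_DamaRep_ASP1 E2, at r = 0.416, both names of chromatin proteins. With centred arrays they stood at 0.376 and 0.261. For F6 this pair stood at 0.550 and 0.452 on the deposited scale, whereas with centred arrays the nearest were nucleosome assembly at 0.434 and cyclin b3 (EBT_DamaRep_ASP5 B5) at 0.265. The median r over all reporters on the deposited scale was 0.107 for H2 and 0.174 for F6.

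For G1, a reporter of another name ranked ahead of H2 on the deposited scale, and ahead of both H2 and F6 with centred arrays. Its nearest unnamed reporters on the deposited scale, over 24 samples, were EBT_DamaRep_ASP1 G9 (r = 0.885) and EBT_DamaRep_ASP1 C12 (r = 0.874). F6 stood at rank 98 of 1825 (r = 0.595), nucleosome assembly at rank 162 (r = 0.526) and H2 at rank 166 (r = 0.525). With centred arrays the nearest named reporter was GAPDH2, EBT_DamaRep_ASP4 F12, at rank 58 (r = 0.632), a name of the glycolytic enzyme glyceraldehyde-3-phosphate dehydrogenase. Nucleosome assembly (rank 132, r = 0.486), F6 (rank 133, r = 0.484) and H2 (rank 136, r = 0.475) followed. No reporter correlated with G1 above 0.9 on either scale.

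The keyword list for egg provisioning and oocyte division held, beside vtg, cyclin b (EBT_DamaRep_ASP1 C7) and cyclin b3 (EBT_DamaRep_ASP5 B5), which drive entry into and progress through division. In Zn(-/-)F2 against CtrlF2, where H2 and F6 fell, cyclin b changed by -0.35 ± 0.23 (adjusted p = 0.372) and cyclin b3 by -0.052 ± 0.16 (adjusted p = 0.892). In Zn(+/-)F2 against Zn(+)F2 they changed by -0.057 ± 0.23 (adjusted p = 0.955) and -0.20 ± 0.16 (adjusted p = 0.629). Neither was called in any of the 11 comparisons. No reporter name contained yolk, vitell, lipov, vasa, nanos or vmo, so other egg proteins could not be followed. Of the 37 named reporters other than vtg, none was called in either of these comparisons, with median changes of 0.12 and -0.20, beside medians of 0.12 and -0.076 over all reporters.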

How the data were processed

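Whole-animal RNA of 27 samples in 9 groups was measured on 2-colour cDNA arrays. The authors deposited 1 table of log2 ratios of sample over reference pool for 2261 reporters, and 4 tables of their own comparisons with log2 changes, average log2 expression, p-values and 2 score columns (moderated t and log odds), per the file headers. SEs given with the authors' values are the deposited log2 change over the deposited score t. Of tools, limma is named, version not given, per the submitters' processing notes. The method of background correction, like that of normalization, was not given in the sources used here. The deposited log2 ratios were not normalized again for the main test. Their direction was taken from the names of the authors' deposited tables: group differences correlated with the authors' log2 changes at r between 0.758 and 0.961 over reporters. Those tables cover CtrlF0, ZnF0, CtrlF1 and CtrlF2 alone. The direction of the other groups, among them Zn(+)F1 and Zn(-)F1 with Cy3 on all samples, was not checked in this way.

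For each reporter limma 3.58.1 (R 4.3.3) fitted 9 groups and a dye term over 26 samples, with p-values adjusted by Benjamini-Hochberg over all reporters. The design had foreseen 27 samples; CtrlF0 replicates 1 and 3 were averaged because at least 0.99 of their values were equal. In tests on simulated data with 2261 reporters, 58% of log2 changes of 1 and 91% of log2 changes of 2 were recovered for ZnF0 against CtrlF0, and 68% and 91% for Zn(-/-)F2 against CtrlF2. Precision is limited by the number of arrays. Separate cultures for the 3 samples of each group are not stated in the labels, so p-values measure only the spread between these samples. One pair of arrays of the same dye, ZnF0 replicate 1 and CtrlF2 replicate 3, correlated at -0.319. Among arrays of opposite dyes in different groups the lowest correlation was -0.463, between ZnF0 replicate 1 and Zn(-)F1 replicate 1. The ratios were kept in the deposited direction. The dye of a sample does not by itself give the direction of its ratio, and that of Zn(-)F1 was not checked. For deviations of same-numbered replicates, r lay between -0.818 and 0.632, and no comparison was above 0.1 in every pair. Some comparisons had 1 sign throughout, such as -0.818 to -0.283 in Zn(+/-)F2 against Zn(+)F2 and 0.073 to 0.260 in Zn(-)F1 against CtrlF1. The numbers were not used to pair samples.

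The reporters described are all those named vtg. For likeness, the rule named, for each vtg reporter, the 3 named and 2 unnamed reporters with the highest correlation among those with complete values over the samples that hold the vtg value. Reporters without a name are given by identifier. The members, lists and rules were chosen with earlier results of these data known. Alternatives tried were no dye term, centred arrays, reporters with a value on all arrays, a replicate block, the compared groups alone, a robust prior, both CtrlF0 columns, other handling of Zn(+)F1 replicate 2, the authors' deposited tables and leaving out each sample. The robust prior, both CtrlF0 columns and the handling of Zn(+)F1 replicate 2 were chosen after seeing the data. No sequence of the clones was used here.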

Additional observations from a re-analysis of the deposited data

How the results depend on the processing

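Of the changes of single vtg reporters, 278 of the values under other settings and 222 of those with 1 sample left out kept direction and side of the threshold. In the same order, 18 and 14 changed sign, all of them uncalled in the main fit. A further 13 and 13 lost the call of the main fit, and 2 and 1 gained a call. Most changes of vtg reporters were uncalled in the main fit, so most of the kept results are uncalled ones. The falls of H2 and F6 in Zn(-/-)F2 against CtrlF2 kept their call under all alternatives run except the fit of those 6 arrays alone, and ranged from -1.37 to -1.0 in H2 and from -1.18 to -0.86 in F6 with 1 sample left out. No vtg reporter has a value on all arrays, so that setting gives counts only. The number of arrays, 1 to 3 a group for these reporters, limits all values, and no signal over background was given by which to judge dim spots. Except where a setting tests fewer reporters or samples, the cause of a change was not tested.

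The number of reporters called was 100 for ZnF0 against CtrlF0, 0 for CtrlF1 against CtrlF0, 19 for CtrlF2 against CtrlF0, 293 for CtrlF1 against CtrlF2, 305 for Zn(+)F1 and 277 for Zn(-)F1 against CtrlF1, 1 for Zn(-)F1 against Zn(+)F1, 72 for Zn(+)F2, 33 for Zn(+/-)F2 and 224 for Zn(-/-)F2 against CtrlF2, 109 for Zn(+/-)F2 against Zn(+)F2, and 313 and 29 for the zinc effect in F1 and in F2 minus that in F0. In the same order, leaving out 1 sample gave 9 to 113, 0 to 10, 1 to 50, 70 to 312, 144 to 291, 151 to 198, 0 to 4, 70 to 305, 6 to 64, 114 to 418, 13 to 273, 183 to 329 and 13 to 95. With a value required on all arrays the counts were 48, 3, 7, 95, 67 and 86 for the first 6, and 9, 6, 65, 1, 136 and 6 for the last 6.

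Without a dye term they were 22 for ZnF0 and 11 for CtrlF2 against CtrlF0, 167 for CtrlF1 against CtrlF2, 105 and 147 for Zn(+)F1 and Zn(-)F1 against CtrlF1, 0 for Zn(-)F1 against Zn(+)F1, 23 for Zn(+/-)F2 against Zn(+)F2 and 166 for the F1 contrast. With centred arrays they were 239, 82 and 36 for the comparisons with CtrlF0, 200 for Zn(+)F1 against CtrlF1, 3 for Zn(-)F1 against Zn(+)F1, and 138, 64 and 392 for those with CtrlF2. Centring also moved the split of higher and lower calls, from 232 and 45 to 110 and 117 in Zn(-)F1 against CtrlF1, from 97 and 196 to 200 and 195 in CtrlF1 against CtrlF2, from 52 and 20 to 81 and 57 in Zn(+)F2 against CtrlF2, from 111 and 113 to 153 and 239 in Zn(-/-)F2 against CtrlF2, from 21 and 88 to 45 and 99 in Zn(+/-)F2 against Zn(+)F2, from 13 and 6 to 17 and 19 in CtrlF2 against CtrlF0, and from 257 and 56 to 206 and 133 in the F1 contrast.

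With the arrays of the compared groups alone the counts were 180 for ZnF0 and 1 for CtrlF2 against CtrlF0, 587 for Zn(-)F1 against CtrlF1, 1 each for Zn(+)F2, Zn(+/-)F2 and Zn(-/-)F2 against CtrlF2 and for Zn(+/-)F2 against Zn(+)F2, and 5 for the F2 contrast. With both CtrlF0 columns kept they were 252, 64 and 120 for the comparisons with CtrlF0. The authors' deposited tables called 738, 557, 279 and 691 reporters in the first 4 comparisons. Without the array of Zn(+)F1 replicate 2 the count was 0 for Zn(-)F1 against Zn(+)F1, and with complete values on all other arrays 19 for the F2 contrast. Replicate numbers were not used to pair the samples in the main fit. With the replicate block the counts were 32 for ZnF0 and 7 for CtrlF2 against CtrlF0 and 2 for Zn(-)F1 against Zn(+)F1. In that setting H2 in Zn(+)F1 against CtrlF1 was 0.90 (adjusted p = 0.050), while no other call of a vtg reporter changed.

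Signs that changed without a dye term were those of CtrlF2 against CtrlF0 in H2 (-0.038) and F6 (-0.063), Zn(+)F1 against CtrlF1 in G1 (-0.085), Zn(-)F1 against CtrlF1 in H2 (-0.0059) and G1 (-0.058), and the F1 contrast in H2 (-0.17). With the compared groups alone the same 4 values resulted for Zn(+)F1, Zn(-)F1 and the F1 contrast, with CtrlF1 against CtrlF2 at -0.15 in G1 and the F2 contrast at -0.11 in H2. With centred arrays G1 stood at -0.33 in Zn(+)F1 and -0.31 in Zn(-)F1 against CtrlF1, and H2 at -0.016 in the F2 contrast. In the authors' deposited tables H2 stood at 0.032 in CtrlF1 against CtrlF0, F6 at -0.0024 and G1 at -0.010 in CtrlF2 against CtrlF0. With 1 sample left out the range crossed 0 in H2 for CtrlF1 against CtrlF0 (-0.26 to 0.022) and the F2 contrast (-0.15 to 0.24), in F6 for CtrlF2 against CtrlF0 (-0.027 to 0.35), and in G1 for Zn(+)F1 against CtrlF1 (-0.056 to 0.068), Zn(-)F1 against Zn(+)F1 (-0.035 to 0.089) and Zn(+/-)F2 against CtrlF2 (-0.25 to 0.086).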
